A study of Homo sapiens with 19 samples.

Results

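The genes described here are IKZF1, IKZF2, IKZF3, IKZF4 and IKZF5, which encode the 5 Ikaros family proteins, and CRBN, which encodes cereblon. They are 6 of 20007 protein-coding genes of GENCODE release 44 on the hg38 build. They were named one by one as a family with its drug receptor, and they were chosen on the covered lengths reported below, so their differences are given as descriptions without a test. The study treated the human acute myeloid leukaemia line MOLM-13 for 24 h with Corin at 0.1 µM or with the vehicle DMSO, for which the labels print the same 0.1 µM. Corin is a small molecule built to block the demethylase LSD1 together with the deacetylases of the CoREST complex. CUT&RUN, in which a nuclease tethered by an antibody cuts out the chromatin that carries a mark, was done for H3K27ac, H3K4me2 and H3K4me3 with 2 libraries per mark and treatment. Peak lists of these 12 libraries were analysed, and 7 of the 19 libraries were not analysed here, namely 4 from cells that received ATRA beside Corin, 1 for LSD1 and 2 IgG controls. The labels do not say that replicates came from separate cultures, so the spread between them may be technical.

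Ikaros family proteins are zinc-finger transcription factors of blood cell development that bind DNA through N-terminal fingers and pair with each other through C-terminal fingers. Ikaros (IKZF1), Helios (IKZF2), Aiolos (IKZF3) and Eos (IKZF4) are best known from lymphoid cells, and Ikaros also acts in stem, progenitor and myeloid cells, whereas Pegasus (IKZF5) is the most divergent of the family and is broadly expressed. Cereblon is the substrate receptor of a CUL4-DDB1 ubiquitin ligase, and thalidomide analogues bound to it recruit Ikaros and Aiolos for degradation. H3K27ac marks active promoters and enhancers, H3K4me3 lies at promoters, and H3K4me2, a substrate of LSD1, lies at promoters and enhancers.

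4 stretches of sequence are shown because the lists differed at or next to them. The first runs upstream of the CRBN 5′ end (chr3:3179728-3179967, minus strand, 240 bases), where H3K4me2 peaks reached in both DMSO lists only. The next is the gap between the divergent starts of IKZF5 and ACADSB (chr10:123008813-123008978, minus strand, 166 bases), which 1 DMSO H3K27ac peak crossed. The third holds 75 of the 97 bases downstream of the IKZF2 5′ end that both DMSO H3K4me3 peaks covered (chr2:213152051-213152125, minus strand). The last precedes a second cluster of IKZF1 starts (chr7:50308450-50308679, plus strand, 230 bases), where both Corin lists held an H3K4me3 peak. The IKZF2 stretch was read from the hg38 genome and the others from the RefSeq promoter table for GRCh38.p14, all 5′ to 3′ on the strand of the gene. Capitals mark AGGGGGCGC, the core of the CTCF motif, in the CRBN stretch and CCGCCC, the reverse strand of the GC box GGGCGG, in the IKZF5 stretch. The other 2 stretches held none of the motifs searched.
CRBN upstream: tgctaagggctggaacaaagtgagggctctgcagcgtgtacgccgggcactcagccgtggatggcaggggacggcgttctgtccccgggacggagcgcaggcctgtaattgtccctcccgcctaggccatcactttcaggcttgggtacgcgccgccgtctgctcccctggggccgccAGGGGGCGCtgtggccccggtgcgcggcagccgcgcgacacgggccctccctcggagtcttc
IKZF5 to ACADSB: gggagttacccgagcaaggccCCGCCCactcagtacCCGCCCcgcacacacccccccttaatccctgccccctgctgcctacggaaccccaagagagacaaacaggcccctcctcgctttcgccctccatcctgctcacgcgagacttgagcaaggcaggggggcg
IKZF2 H3K4me3 segment: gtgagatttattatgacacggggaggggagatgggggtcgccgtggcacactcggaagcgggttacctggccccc
IKZF1 second promoter: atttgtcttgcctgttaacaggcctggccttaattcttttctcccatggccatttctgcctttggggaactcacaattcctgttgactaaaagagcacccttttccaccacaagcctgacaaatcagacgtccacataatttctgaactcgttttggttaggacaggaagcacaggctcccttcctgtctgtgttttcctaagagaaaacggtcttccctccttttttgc

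The RefSeq table, which gives 300 bases around a start, held 5 of the 6 genes (IKZF3 was not among them). The IKZF1 window had 35 CpG dinucleotides, 5 GC boxes and 1 Ikaros core (TGGGAA). CRBN had 29 CpG, 1 GC box and the CTCF core, IKZF5 had 23 CpG, 3 GC boxes and 1 YY1 site (AAGATGGC), and IKZF4 had 19 CpG and 1 ETS site (CCGGAAG). The IKZF2 window had 4 CpG and none of these motifs. Its start lies 29 bp from the 5′ end, whereas the canonical transcript starts 815 bp downstream, so it does not describe the canonical promoter. The median over 35116 promoters was 14 CpG. On either strand, 45% of promoters held a GC box, 24.0% the Ikaros core and 10.3% the ETS site. The YY1 site was in 2.89% and the CTCF core in 1.93%. That core was searched for after the CRBN sequence had been read. No window of the 5 genes held a CCAAT or TATAAA box, which 34.6% and 11.5% of promoters did.

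Each list gives a peak's position and a score of at least 50 whose definition is not given in the sources used here. The measure for a gene was the number of bp under peaks within 10 kb either side of its 5′ end, a window of equal length for every gene. The lists themselves differed in extent between treatments. H3K27ac peaks covered 20.1 to 26.1 Mb in the Corin lists and 11.1 to 12.6 Mb in the DMSO lists, H3K4me2 peaks 42.2 to 47.4 Mb and 33.4 to 36.6 Mb, and H3K4me3 peaks 15.2 to 15.6 Mb and 14.2 to 14.965 Mb. In bulk chromatin, a mark on fewer cells and less of the mark per cell cannot be told apart. Around the 7 myeloid marker genes fixed for the check of the label, 4 (SPI1, CEBPA, CD33 and LYZ) had H3K4me3 within 2 kb in all 4 lists, and MPO, CSF1R and ITGAM had none. H3K4me3 was at 0 at all 5 B lymphoid, 5 T lymphoid and 5 erythroid and megakaryocyte markers, and H3K27ac at all of these except CD79A, where it covered 716 and 792 bp in the Corin lists and 226 and 0 bp in the DMSO lists. H3K4me2 was broader and lay in all 4 lists at 3 of the B lymphoid markers (CD79A, PAX5 and EBF1), at 2 of the T lymphoid markers (CD8A and BCL11B) and at 5 of the myeloid ones. Summed over the myeloid list, all 3 marks covered more in the Corin than in the DMSO lists: 10648 to 10790 bp against 7124 to 9842 bp for H3K27ac, 11765 to 12730 bp against 9572 to 10324 bp for H3K4me2, and 9159 to 9403 bp against 7982 to 8059 bp for H3K4me3. Single genes carried much of this: LYZ for H3K4me3 (2024 and 1850 bp against 603 and 770 bp), and ITGAM (1249 and 1459 bp against 0 bp in both DMSO lists) with LYZ for H3K4me2. The part of these markers in the results below was not tested.

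**Figure D1:**
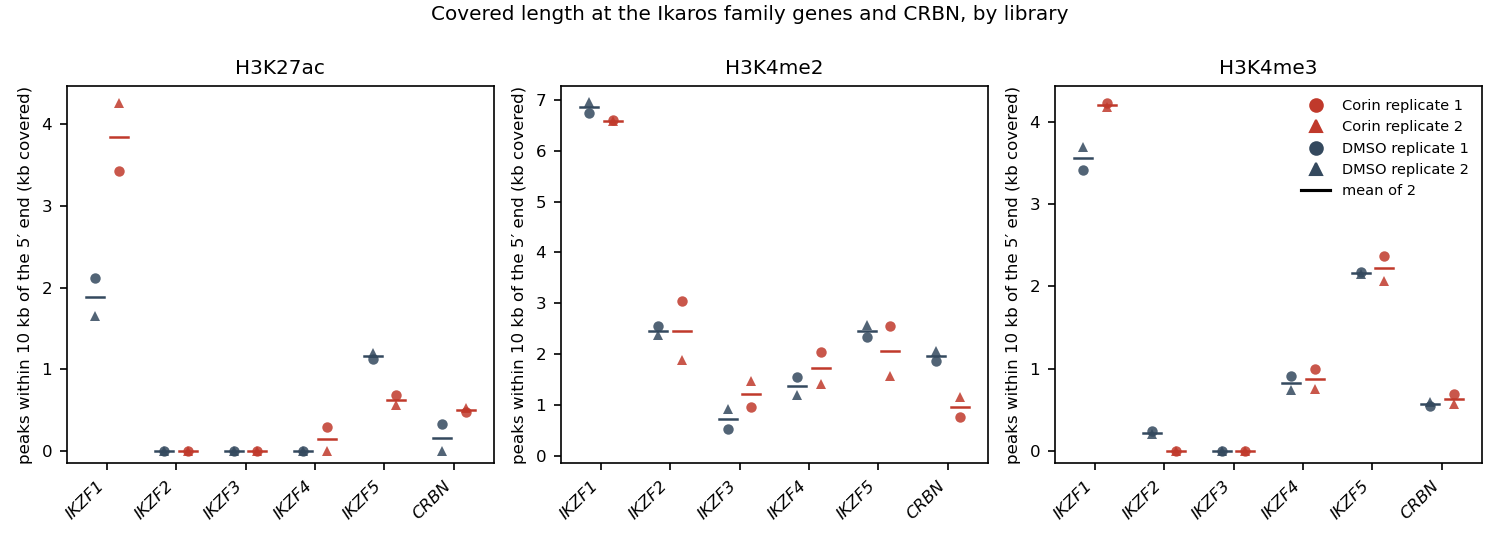
Covered length within 10 kb of the 5′ end (kb, vertical axis) of the 6 genes for each mark, with 1 point per library (circle for replicate 1, triangle for replicate 2, red for Corin, dark blue for DMSO) and a bar at the mean of 2. IKZF1 had the most of every mark, from 1656 to 6951 bp, and IKZF3 had H3K4me2 alone, from 520 to 1467 bp.

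The 6 genes fell into an order that was much the same for the promoter marks. In the DMSO lists H3K4me3 covered a mean of 3554 bp at IKZF1, 2165 bp at IKZF5, 827.5 bp at IKZF4, 567.5 bp at CRBN, 223.5 bp at IKZF2 and 0 bp at IKZF3. Each neighbour in that order was separated from the next by more than the spread of both libraries. H3K27ac was led by IKZF1 (1888 bp) and IKZF5 (1161.5 bp), followed by CRBN (164 bp, from 1 of 2 lists), while IKZF2, IKZF3 and IKZF4 were at 0. For H3K4me2 the order was IKZF1 (6850 bp), IKZF2 (2461.5 bp), IKZF5 (2454 bp), CRBN (1959.5 bp), IKZF4 (1371 bp) and IKZF3 (718 bp), with the libraries of IKZF2 and IKZF5 overlapping. IKZF2 and IKZF3 thus had H3K4me2 with little or no H3K4me3 and no H3K27ac peak. Among the 5 genes with a RefSeq window, IKZF1 with 35 CpG had the most H3K4me3 and IKZF2 with 4 the least. CRBN with 29 CpG had less than IKZF5 with 23 and IKZF4 with 19. The IKZF2 window was not at its canonical start, so its rank by CpG holds for the 5′ end only.

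IKZF1 (ENSG00000185811.21, chr7:50304068-50405101, plus strand) encodes Ikaros, the founding member and a substrate of thalidomide analogues. H3K27ac within 10 kb covered 3425 and 4254 bp in the Corin lists and 2120 and 1656 bp in the DMSO lists. The groups did not overlap, with means of 3839.5 ± 586 bp and 1888 ± 328 bp (SD, n = 2 each), a 2.03-fold difference. H3K4me3 covered 4223 and 4185 bp after Corin against 3410 and 3698 bp after DMSO, also without overlap (4204 ± 26.9 against 3554 ± 204 bp, SD, n = 2 each). H3K4me2 went the other way by a small amount, with 6606 and 6578 bp after Corin against 6749 and 6951 bp after DMSO, lower by 258 bp (SD of the difference 144). Of these 258 bp, 151 came from a 302 bp peak in DMSO replicate 2 alone, and without that library the difference was -157 bp. All IKZF1 peaks lay downstream of the 5′ end.

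The 3 marks lay in different, partly overlapping places along the 5′ part of IKZF1. H3K4me3 formed 1 block from 182 to 4010 bp downstream of the 5′ end in all 4 lists, and H3K4me2 a block from 1864 to 8958 bp. Within 2 kb of the 5′ end H3K4me2 was therefore at 0 in 3 of the 4 lists, with 439 bp in DMSO replicate 2. The first H3K4me3 block was not longer after Corin, at 3680 and 3382 bp against 3410 and 3698 bp. Within 2 kb H3K4me3 was lower in both Corin lists, at 1670 and 1612 bp against 1718 and 1819 bp. The H3K4me3 difference within 10 kb came instead from a separate region at 4233 to 5083 bp (chr7:50308301-50309151, exon and intron, 851 bp), under which peaks covered 543 and 803 bp in the Corin lists and 0 bp in both DMSO lists. Such a region, present in both Corin and neither DMSO list by an overlap of at least 1 bp, is called gained. Over all genes, 1.49% of 12090 H3K4me3 regions were gained.

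That gained region held the starts of 3 of the 13 basic transcripts of IKZF1, 4612 to 4680 bp from the 5′ end, and the IKZF1 second promoter sequence printed above lies directly before them. That sequence had 3 CpG in 230 bases, against 35 in the 300 bases at the main start. An H3K27ac region at 4134 to 5469 bp, wider than the gained one, overlapped it in all 4 lists, with 875 and 1336 bp after Corin against 473 and 366 bp after DMSO. Its peak in DMSO replicate 2 ended at 4564 bp, before these starts. H3K4me2 covered it in all 4 lists as part of its long block. The scores of the 2 gained H3K4me3 peaks were low in their lists, at percentiles 10.7 and 27.5.

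**Figure D2:**
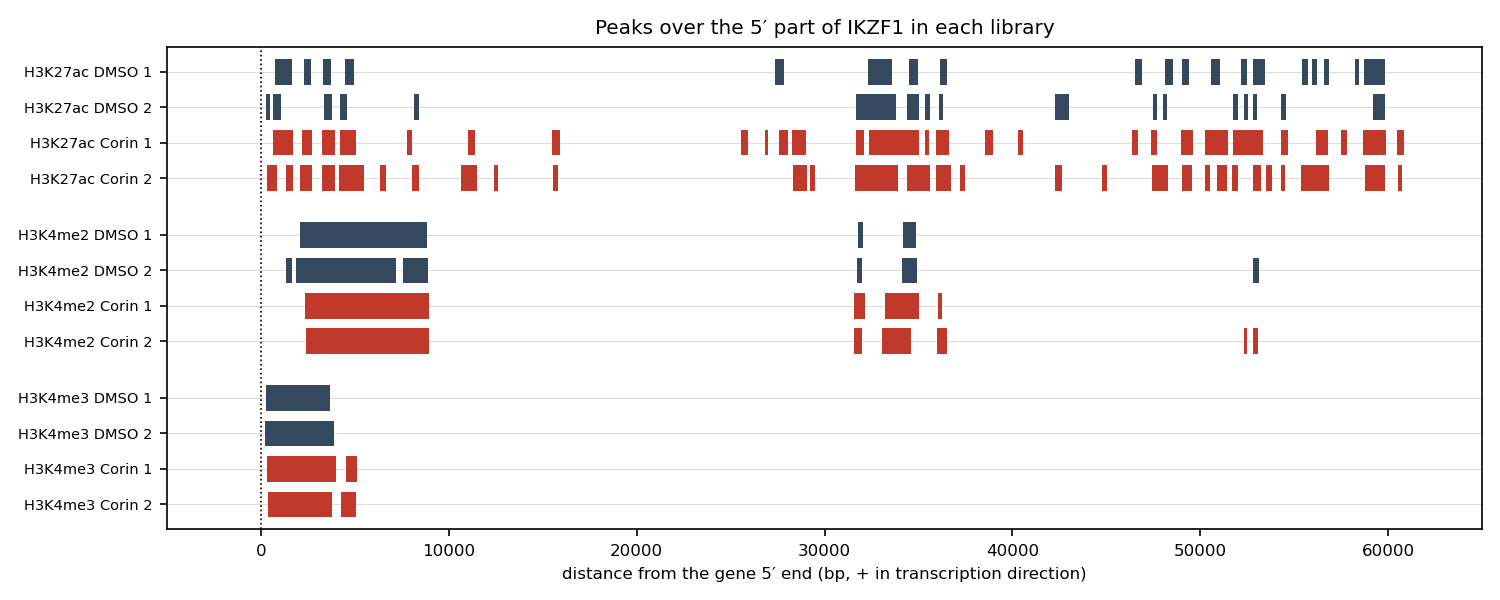
Peaks along the 5′ part of IKZF1 in each of the 12 lists, by distance from the 5′ end in bp (horizontal axis), with bars drawn from peak start to peak end (red for Corin, dark blue for DMSO). H3K4me3 after Corin had a second block at 4233 to 5083 bp, and H3K27ac peaks were more numerous out to 60856 bp.

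The difference in acetylation within 10 kb ran on into the gene at a similar ratio, 2.09-fold over the body, but was smaller at the start. Within 2 kb H3K27ac covered 1018 and 858 bp after Corin against 881 and 601 bp after DMSO, 1.27-fold with overlap. Over the whole IKZF1 body H3K27ac covered 17711 and 18018 bp in the Corin lists and 9436 and 7690 bp in the DMSO lists, means of 17864.5 ± 217 and 8563 ± 1235 bp (SD, n = 2 each). Both Corin lists thus lay above both DMSO lists by 8275 bp or more, although 53.4% of all covered genes were likewise higher over the body. The gene and its window held 33 H3K27ac regions, of which the Corin lists each had 25 and the DMSO lists 15 and 11. 8 regions were in all 4 lists and 4 were gained, while over all genes 11.5% of 41587 H3K27ac regions were gained. The gained regions were intronic, at 10620 to 11510, 15462 to 15930, 28278 to 29038 and 60488 to 60856 bp, and the highest mean coverage after Corin among them was at the third (chr7:50332346-50333106), with 710 and 732 bp, followed by the first with 380 and 891 bp. Only 1 of the 4 was gained among the top-scoring peaks at a matched number.

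The region of IKZF1 with the largest H3K27ac difference between the means was present in all lists, and it lost that rank when either of 2 libraries was left out. It lay at 31634 to 35630 bp (chr7:50335702-50339698, intron) and was covered by 3318 and 3512 bp after Corin against 1785 and 3034 bp after DMSO. Leaving out libraries here was chosen after seeing the data. Without DMSO replicate 1 the difference of this region fell from 1005.5 to 381 bp, and the largest was 1060 bp at 55359 to 56856 bp. Without Corin replicate 2 the largest was 955.5 bp at 50270 to 51464 bp. Without DMSO replicate 2 the region at 31634 to 35630 bp differed by 1630 bp. H3K4me2 within that region, at 33039 to 35011 bp (chr7:50337107-50339079), covered 1804 and 1587 bp after Corin against 682 and 796 bp after DMSO. A further H3K4me2 region at 35975 to 36506 bp was gained (228 and 532 bp, against 0 bp in both DMSO lists), as were 9.64% of 42429 H3K4me2 regions. It was not gained at a minimum score of 100 or at a matched number. H3K4me2 over the whole body of IKZF1 was higher after Corin, at 9230 and 9640 bp against 7705 and 8341 bp. Its block near the start went the opposite way, by -107 bp only. The share of all genes with more H3K4me2 over the body is not given here.

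IKZF3 (ENSG00000161405.17, chr17:39757718-39864312, minus strand) encodes Aiolos, the partner of Ikaros as a drug substrate. It had no H3K27ac and no H3K4me3 peak in any of the 8 lists of these marks. H3K4me2 covered 952 and 1467 bp in the Corin lists and 520 and 916 bp in the DMSO lists (1209.5 ± 364 against 718 ± 280 bp, SD, n = 2 each). The groups did not overlap, but by 36 bp only. The peak over the 5′ end was alike in all lists, at 472 and 628 bp after Corin against 520 and 462 bp after DMSO. The difference came from peaks 704 to 1607 bp upstream, which covered 480 and 839 bp after Corin against 0 and 454 bp after DMSO. The start of ZPBP2 lies 3890 bp away on the other strand. The difference of 491.5 bp turned to -81.5 bp at a minimum score of 100 and to -179 bp at a matched number, and it was 749 bp without Corin replicate 1, 234 bp without Corin replicate 2 and 293.5 bp without DMSO replicate 1.

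IKZF2 (ENSG00000030419.17, chr2:212999691-213152427, minus strand) encodes Helios. H3K27ac was at 0 in all 4 lists. H3K4me2 covered 3033 and 1887 bp after Corin against 2553 and 2370 bp after DMSO, so the Corin values lay on both sides of the DMSO values and the means differed by 1.5 bp (SD of the difference 821). H3K4me3 covered 0 bp in both Corin lists and 240 and 207 bp in the DMSO lists. The DMSO peaks lay 137 to 376 and 280 to 486 bp downstream of the 5′ end and shared 97 bp, the stretch of which 75 bases are printed above. They formed the only region at the 6 genes that was lost (in both DMSO and neither Corin list, chr2:213151941-213152290, exon and intron), against 0.289% of 12090 H3K4me3 regions over all genes. Both peaks scored low, at percentiles 1.84 and 15.8 of their lists, and at a minimum score of 100 only that of DMSO replicate 2 was kept. Under the 2 DMSO peaks H3K4me2 was present in all 4 lists. A long non-coding RNA starts 455 bp from the IKZF2 5′ end, and the canonical transcript starts 815 bp downstream.

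IKZF4 (ENSG00000123411.15, chr12:56007659-56038435, plus strand) encodes Eos. H3K4me3 crossed its 5′ end in all 4 lists and covered 999 and 756 bp after Corin against 912 and 743 bp after DMSO, so the groups overlapped (difference 50 bp, SD 209). H3K4me2 within 10 kb covered 2040 and 1415 bp after Corin against 1551 and 1191 bp after DMSO, again with overlap. Part of these bp belong to a peak 9509 to 11309 bp upstream, which lies over the start of SUOX at 10479 bp in all 4 lists. Within 2 kb the H3K4me2 values were 1548 and 990 bp against 1286 and 917 bp. H3K27ac was at 0 in both DMSO lists, and each Corin list held 1 low-scoring peak in a different intronic place, of 296 bp at 114 bp and of 319 bp at 12811 bp downstream. The second lies close before the canonical start at 13384 bp. Over the body, H3K27ac was higher in both Corin lists at 3 of the 4 members that had any (IKZF1, IKZF4 and CRBN), beside 53.4% of 10810 covered genes.

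IKZF5 (ENSG00000095574.12, chr10:122990807-123008812, minus strand) encodes Pegasus and shares its promoter region with ACADSB, an acyl-CoA dehydrogenase gene whose start lies 167 bp upstream. H3K27ac covered 684 and 558 bp after Corin against 1122 and 1201 bp after DMSO (621 ± 89.1 against 1161.5 ± 55.9 bp, SD, n = 2 each). Both Corin lists lay below both DMSO lists, and the place of the missing bp differed between the DMSO lists. The Corin peaks ran from 156 to 839 and from 104 to 661 bp downstream of the 5′ end. The peak of DMSO replicate 1 ran from 42 to 836 bp, with a separate 327 bp peak from 1075 bp, and that of DMSO replicate 2 from 394 bp upstream, across the printed gap to ACADSB, to 806 bp. Only 62 bp, from 42 to 103 bp downstream, lay under both DMSO peaks and under neither Corin peak. The peak of DMSO replicate 2 scored at percentile 20.9 of its list and the others over this stretch at 83.3 to 90.2. Without peaks scoring under 100, the Corin mean was higher by 60 bp.

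The methyl marks of IKZF5 were arranged as a core with flanks. H3K4me3 crossed the 5′ end in every list as 1 peak of 2367 and 2067 bp after Corin against 2177 and 2153 bp after DMSO, and the groups overlapped. H3K4me2 lay on both sides and left the start itself free in all 4 lists. Its upstream peak covered 993 and 983 bp after Corin against 1065 and 1080 bp after DMSO. Most of that peak lay past the ACADSB start, 167 bp upstream, and so within ACADSB. The downstream H3K4me2 peak covered 1554 and 590 bp after Corin against 1273 and 1490 bp after DMSO. The sum within 10 kb overlapped between the groups (2547 and 1573 against 2338 and 2570 bp), and Corin replicate 2 was the low library.

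**Figure D3:**
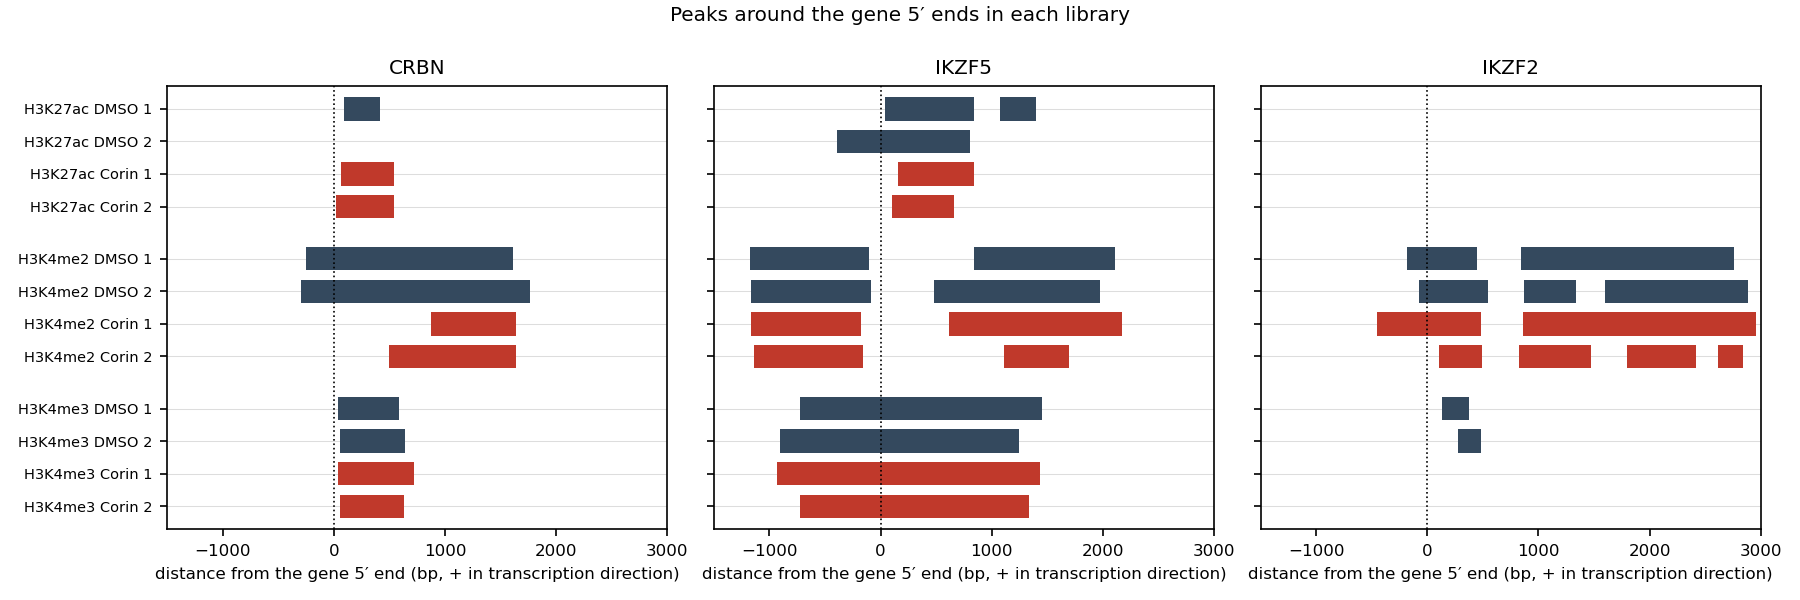
Peaks around the 5′ ends of CRBN, IKZF5 and IKZF2 in each list, by distance from the 5′ end in bp (horizontal axis, positive in the direction of transcription), with bars from peak start to peak end (red for Corin, dark blue for DMSO). The H3K4me2 peaks of CRBN crossed the start in both DMSO lists and began 872 and 496 bp downstream in the Corin lists.

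CRBN (ENSG00000113851.16, chr3:3144628-3179727, minus strand) encodes cereblon, the receptor through which Ikaros and Aiolos are degraded when a thalidomide analogue is bound. H3K4me2 covered 770 and 1146 bp after Corin against 1864 and 2055 bp after DMSO (958 ± 266 against 1959.5 ± 135 bp, SD, n = 2 each). The Corin mean was 0.489 of the DMSO mean, and the groups were 718 bp apart. The difference lay at the 5′ edge of 1 peak. In the DMSO lists that peak began 249 and 293 bp upstream of the 5′ end, and in the Corin lists 872 and 496 bp downstream of it, while its far edge lay at 1614 and 1761 bp after DMSO and at 1641 bp in both Corin lists. The stretch under both DMSO peaks and neither Corin peak was 745 bp, from 249 bp upstream to 495 bp downstream, and takes in the whole CRBN upstream sequence printed above, whose capitals mark the CTCF core.

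The other marks of CRBN did not follow H3K4me2. H3K4me3 began 36 to 56 bp downstream in all 4 lists and covered 689 and 575 bp after Corin against 542 and 593 bp after DMSO, with overlap. The H3K4me3 peak of CRBN therefore lay wholly under H3K4me2 in the DMSO lists (542 and 593 bp shared within 2 kb) and shared 0 and 135 bp with it in the Corin lists. At IKZF5 these marks shared 1576 and 805 bp after Corin against 1229 and 1584 bp after DMSO, with overlap. H3K27ac at CRBN covered 478 and 521 bp after Corin against 328 and 0 bp after DMSO, at the same place as H3K4me3, so the groups did not overlap. The mean difference of 335.5 bp was 171.5 bp without DMSO replicate 2, the library with no peak. At a matched number of top-scoring peaks it was 96.5 bp.

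Counted over the 6 genes, H3K27ac was measured at 4, and both Corin lists lay above both DMSO lists at 2 (IKZF1 and CRBN) and below them at 1 (IKZF5). Over all 10529 genes with H3K27ac in the window, 54.6% were higher and 0.655% lower. H3K4me2 was measured at all 6, with 1 higher (IKZF3) and 2 lower (IKZF1 and CRBN), against 39.5% higher and 3.83% lower of 14074 genes. H3K4me3 was measured at 5, with 1 higher (IKZF1) and 1 lower (IKZF2), against 25.7% higher and 8.28% lower of 11189 genes. These values chose the genes, so nothing is read from the counts beside those shares. The median difference over the measured members was 241.75 bp for H3K27ac, -129.75 bp for H3K4me2 and 52 bp for H3K4me3, beside 445, 233.5 and 63.5 bp over all measured genes. With 2 libraries against 2, the smallest exact two-sided permutation p is 0.333, so no single difference can pass 0.05 by that test.

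The direction of some genes depended on whether the larger extent of the Corin lists was taken out. When each value was expressed as a share of all bp covered in its list and rescaled to the mean covered length of the mark, the median log2 ratio of genes covered in both groups moved from 0.75 to -0.21 for H3K27ac, from 0.15 to -0.20 for H3K4me2 and from 0.06 to -0.02 for H3K4me3. On that scale 16.5% of genes were higher and 25.0% lower in H3K27ac, 9.86% and 45.9% in H3K4me2, and 14.0% and 19.8% in H3K4me3. IKZF1 and CRBN then overlapped between the groups in H3K27ac, with rescaled values of 2290 and 3695 bp against 3345 and 2302 bp at IKZF1. IKZF5 stayed lower in H3K27ac, and IKZF1, IKZF2, IKZF5 and CRBN were lower in H3K4me2. IKZF1 stayed higher and IKZF2 lower in H3K4me3. Where same-numbered libraries were paired, IKZF4 was also higher in both pairs for H3K4me2 and for H3K4me3, which made 2 genes higher for each of these marks, beside 49.9% and 37.3% of all covered genes under the paired rule.

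**Figure D4:**
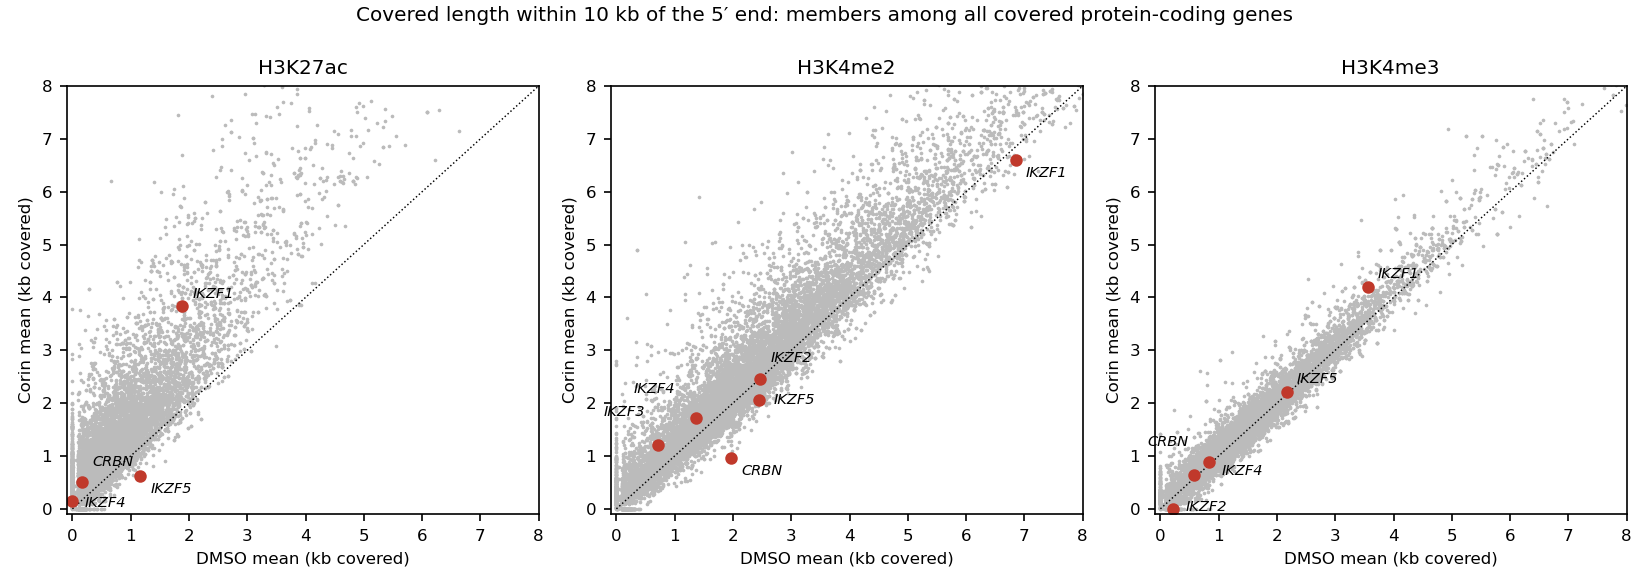
Mean covered length within 10 kb of the 5′ end (kb) in the Corin lists (vertical axis) against the DMSO lists (horizontal axis) for all covered protein-coding genes (grey) and the members (red, named), 1 panel per mark, with a dotted line at equal values. Genes above 8 kb on either axis (101 for H3K27ac, 318 for H3K4me2, 33 for H3K4me3) are not drawn; CRBN lies well below the line for H3K4me2 and IKZF5 for H3K27ac.

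Genes linked to cereblon or to Ikaros proteins were read from 3 lists, chosen like the members with earlier results known. Of 10 genes of the ligase around cereblon, 8 had H3K27ac and 7 of these were higher after Corin in both lists, with none lower, beside 54.6% higher and 0.655% lower of all covered genes. DDB1, the adaptor that holds cereblon on the ligase, had 1734 and 2031 bp after Corin against 778 and 846 bp after DMSO. H3K4me2 was higher at 2 and H3K4me3 at 1 of 8 covered genes, with none lower, beside 39.5% and 25.7% higher of all covered genes. They were led by UBE2D3, a ubiquitin-conjugating enzyme (H3K4me2 higher by 814 bp), and NEDD8, the modifier that activates cullins (H3K4me3 higher by 365 bp). The count of 0 lower in H3K4me2 is near the 3.83% of all genes and is no contrast with CRBN. Its median H3K4me2 difference was 11 bp, beside 233.5 bp over all genes.

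Another 10 genes encode proteins that are degraded through cereblon when a drug is bound to it. Of the 7 with H3K27ac, 6 were higher after Corin, beside 54.6% of all covered genes. RNF166, itself a ubiquitin ligase gene, led with 3364 and 3196 bp against 250 and 1928 bp, a difference of 2191 bp that was 1352 bp without DMSO replicate 1. Leaving out libraries for the genes named from the lists was chosen after seeing the data. For H3K4me2, 2 of 9 were higher (39.5% of all genes), led by the zinc-finger gene ZFP91 (by 1605.5 bp), and 2 were lower (3.83% of all genes). RNF166 led the latter with 6454 and 6299 bp after Corin against 6475 and 6971 bp after DMSO, and its difference of -346.5 bp was -98.5 bp without DMSO replicate 2 and -594.5 bp without DMSO replicate 1. For H3K4me3, 4 of 8 were higher (25.7% of all genes) and none was lower (8.28%). The zinc-finger gene ZNF276 led with 4182 and 4080 bp against 3421 and 3883 bp, a difference of 479 bp that was 248 bp without DMSO replicate 1.

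Of 16 partners of Ikaros proteins in the NuRD, SIN3 and CtBP complexes, 9 of the 13 with H3K27ac were higher after Corin and none was lower, beside 54.6% and 0.655% of all covered genes. CHD4, the NuRD remodelling ATPase, had 2457 and 2508 bp against 471 and 228 bp. H3K4me2 was higher at 5 of 15 (39.5% of all genes), led by the NuRD subunit GATAD2A (by 1824 bp), and lower at 1 (3.83%). That 1 was the corepressor gene CTBP1, whose difference of -284.5 bp was -136 bp without Corin replicate 2 and -433 bp without Corin replicate 1. H3K4me3 was higher at 8 of 14 (25.7% of all genes), led by the histone-binding RBBP7 (by 455.5 bp), and lower at 3 (8.28%). The scaffold gene SIN3B led the latter, at 0 in both Corin lists and 201 and 596 bp in the DMSO lists, a difference of -398.5 bp that was -201 bp without DMSO replicate 2. Median differences of H3K27ac over the covered genes were 799 bp in the ligase list, 1248 bp in the list of degraded proteins and 833 bp in the partner list, beside 445 bp over all genes.

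The genes most like each member were taken as the 2 with the smallest mean absolute difference in bp over the 12 libraries, leaving out genes with an overlapping window, so a like response to Corin is part of the measure. For IKZF1 they were PNPLA2 (356 bp) and MXI1 (421 bp), where H3K27ac was also higher after Corin, at 3406 and 3547 bp against 1572 and 1335 bp for PNPLA2. For IKZF2 they were PCDH7 (92.6 bp) and GABRA4 (124 bp). PCDH7 and GABRA4 had H3K4me2 alone, without the H3K4me3 that IKZF2 had in the DMSO lists. RAMP2 (23.4 bp) and GNAZ (28.8 bp), likewise with H3K4me2 alone, were closest to IKZF3. RAMP2 was higher after Corin as IKZF3 was, at 945 and 1217 bp against 502 and 910 bp. The values of GNAZ overlapped between the groups, at 864 and 1399 bp against 557 and 1068 bp. C16orf46 and MLH3 (102 bp each) were closest to IKZF4, and PPP2R5E (222 bp) and HS2ST1 (223 bp) to IKZF5. The H3K27ac values of PPP2R5E overlapped between the groups, at 1132 and 1208 bp after Corin against 876 and 1355 bp after DMSO. NMBR and VTA1, which share a window and all its values, were closest to CRBN at 170 bp. Their H3K27ac was higher after Corin as at CRBN, at 863 and 483 bp against 320 and 0 bp, while their H3K4me2 overlapped between the groups, at 1679 and 1208 bp against 1664 and 1755 bp.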

How the data were processed

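Per the labels' protocols, CUT&RUN libraries of MOLM-13 cells were sequenced to 5000000 or more paired 150 bp reads each. Depth is otherwise unknown, so no interval or floor was computed. Trim Galore, Bowtie2, Picard and MACS2, with GRCh38 and hg38, are named per the submitters' processing notes, without versions. The authors deposited 1 peak list per library, with a score per peak, which served here to order or threshold the peaks of 1 list. Positions fit hg38: 0 of 292523 peaks passed a chromosome end.

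Covered bp were summed with Python 3.11.15, numpy 2.4.6 and pandas 2.3.3 within 10 kb and 2 kb of each gene's 5′ end and over its body, and the code was checked on simulated peaks. Positions count from 1. Regions merge the 4 lists of a mark. Named were the 6 members, the 2 genes most like each, windows' neighbours, every gained or lost region, the region with the largest difference where a result turns on it, and in each list the largest rise and fall. Members and lists were chosen with earlier results of these data known. Same-numbered Corin and DMSO libraries deviated together (correlations across genes 0.286, 0.309 and 0.228 for H3K27ac, H3K4me2 and H3K4me3). On that ground, and not from the labels, the numbers were taken to pair libraries in the replicate block, an alternative setting. The main calls and each SD of a difference treated the libraries as unpaired. 7 libraries were not analysed here.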

Additional observations from a re-analysis of the deposited data

Results flagged for a closer look

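At IKZF1 within 10 kb, H3K27ac covered 1951.5 bp more and H3K4me2 258 bp less after Corin (a difference of -258 bp), with both Corin lists on one side of both DMSO lists for each mark. H3K4me3 at IKZF1 covered 650 bp more, again opposite to H3K4me2. At CRBN, H3K27ac covered 335.5 bp more and H3K4me2 1001.5 bp less (-1001.5 bp). These pairs of marks drew attention because the Corin lists of the paired marks moved in opposite directions. Over all covered genes, 54.6% were higher in H3K27ac, 25.7% higher in H3K4me3 and 3.83% lower in H3K4me2. As a share of covered bp, H3K27ac overlapped between the groups at both genes. Over the IKZF1 body, H3K4me2 was higher after Corin by 1412 bp. The difference between the marks was not tested.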

How the results depend on the processing

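The count of members higher in H3K27ac (2) was 1 at a matched number (IKZF1) and 1 within 2 kb (CRBN). It was 0 as a share of covered bp and by number of peaks. Over the gene body it was 3, and from 2 to 3 when 1 library was left out. The count lower in H3K27ac (1) was 0 at a minimum score of 100 and by number of peaks. The count higher in H3K4me2 (1) was 0 at a matched number, at a minimum score of 100, as a share and by number of peaks, and from 1 to 3 when 1 library was left out. The count lower in H3K4me2 (2) was 1 within 2 kb and over the gene body and 0 by number of peaks. It was 4 as a share, beside 45.9% of all covered genes, and from 2 to 4 when 1 library was left out. The count higher in H3K4me3 (1) was 0 within 2 kb and from 1 to 4 when 1 library was left out, and the count lower (1) was 0 at a minimum score of 100, 2 within 2 kb and from 1 to 2 when 1 library was left out. The highest counts on leaving out a library came without Corin replicate 2 (3 higher in H3K27ac, 3 in H3K4me2, 4 in H3K4me3) or without Corin replicate 1 (4 lower in H3K4me2, 2 lower in H3K4me3). With the replicate block, 2 members were higher in H3K4me2 and 2 in H3K4me3, and no other count changed. Shares of all genes stand above for the main and share settings, for these 2 paired counts and for H3K27ac higher over the body. For the other settings they are not given, so nothing is read from those counts. Among members whose groups did not overlap, the differences that changed sign were those of IKZF1 H3K4me2 over the gene body (1412 bp), IKZF1 H3K4me3 within 2 kb (-127.5 bp), IKZF3 H3K4me2 at a matched number (-179 bp), at a minimum score of 100 (-81.5 bp) and over the gene body (-12.5 bp), and IKZF5 H3K27ac at a minimum score of 100 (60 bp). Among those whose groups overlapped, the differences in bp spanned 0 for H3K4me2 at IKZF2 (-646.279 to 571.5), IKZF4 (-200 to 669) and IKZF5 (-980.212 to 93) and for H3K4me3 at IKZF4 (-71.5 to 171.5) and IKZF5 (-98 to 202). The cause was not tested. CRBN H3K4me2 was lower under 11 of 12 alternatives, from -1366.56 to -730.5 bp, and its number of peaks did not differ.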
